A study of Mus musculus with 4 samples.

Results

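Ly49 receptors were followed in mouse natural killer (NK) cells treated with DKK2. The family was taken as 10 listed Klra genes (Klra2 to Klra10 and Klra17), each found by its symbol on 1 row of the 37305 rows of the deposited table. The family was chosen by the FPKM values of Klra17, seen higher with DKK2 in these libraries, and by its gene names, so the DKK2 differences of its members are given as a description and no member is tested. The primary NK cells were splenic, from C57BL/6 mice 56 days old, and were cultured for 24 hours in recombinant murine IL-15 at 50 ng/ml. Treated cells then received DKK2 (Dickkopf 2, a secreted ligand of Wnt co-receptors) at 200 ng/ml for another 24 hours, and control cells were mock treated for the same time, with 2 libraries in each group. Whether the 2 libraries of a group came from separate animals or cultures is not given, so their spread may be technical.

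Ly49 proteins are C-type lectin-like receptors, encoded side by side in the NK gene complex, and in mice they do the work that killer immunoglobulin-like receptors do in humans. Most bind MHC class I molecules and carry an inhibitory tyrosine motif (ITIM) that recruits phosphatases such as SHP-1, the product of Ptpn6. Ly49D and Ly49H lack that motif, pair with the adaptor DAP12, the product of Tyrobp, and activate the cell. Each NK cell expresses a variegated subset of the family, so that a bulk level mixes cells that have a receptor with cells that lack it. In these bulk samples fewer cells of a type and less RNA per cell cannot be told apart.

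Levels are in FPKM (fragments per kilobase of transcript and scaled to the library's mapped fragments), which is per length, so genes can be compared with each other. Read totals are not given. From the smallest steps between low values, 1 fragment in a 1 kb transcript was worth 0.0485 and 0.0491 FPKM in the DKK2 libraries, against 0.0194 and 0.0566 FPKM in the controls. Control replicate 1 was therefore the deepest library, and the others had 0.343 to 0.400 of its depth. The NK cell label fitted the data, with the NK receptor Ncr1 at 389 and 197 FPKM in DKK2 libraries and 303 and 193 FPKM in controls. Markers of other cells were also present, most of them lowest in control replicate 1.

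The genes lie on chromosome 6, and several are near copies of each other, which bears on how far a single value can be trusted. Over the 14 Klra genes with transcripts in GENCODE M21, the share of each member's 50-base transcript windows that another Klra gene also holds was computed. Klra10 shared 39.8% of its windows, Klra8 33.1%, Klra9 31.5% and Klra3 20.7%. Klra8 shared most with the pseudogene Klra14-ps (20.4% of its windows), and Klra9 with Klra3 (13.1%) and Klra10 (13.0%). Klra7 shared 12.3%, all of it with the pseudogene Klra13-ps, and Klra4, Klra6 and Klra5 shared 4.35%, 2.62% and 0.655%. Klra17 and Klra2 shared 0 windows, so no exact match of that length links them to these genes. How the authors' counting divided fragments between near copies is not stated in the labels, and the levels of Klra10, Klra8, Klra9 and Klra3 are uncertain for that reason. The table's Klra23 row has no transcript in this annotation and was left out of that comparison.

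**Figure D1:**
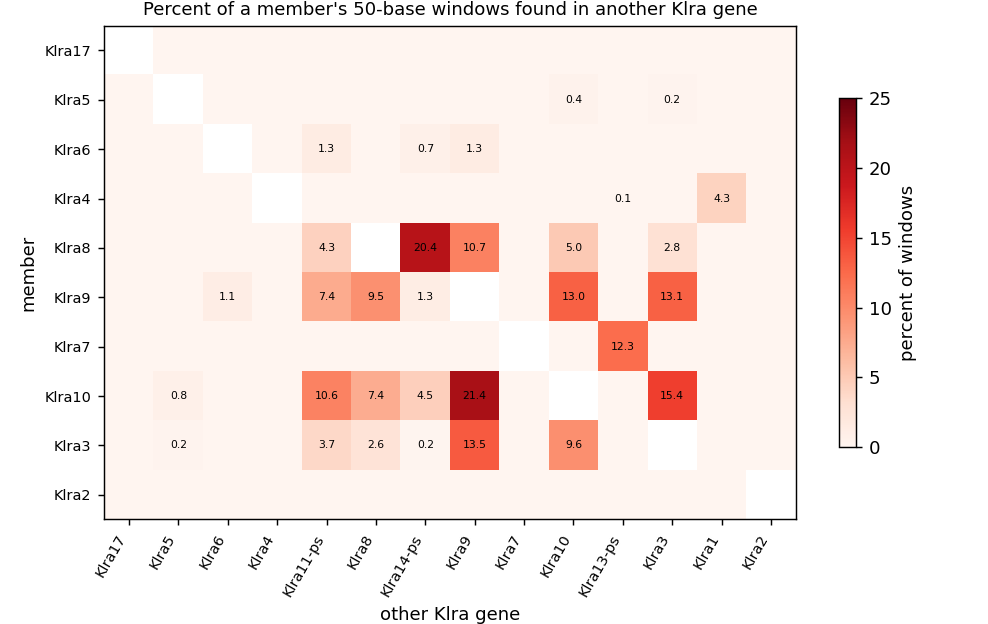
Percent of each member's 50-base transcript windows (rows, in chromosomal order) that occur in each other Klra gene (columns), with blank squares for a gene against itself and values printed where above 0. Klra8, Klra9, Klra10 and Klra3 form the block of near copies, while the rows of Klra17 and Klra2 hold no shared window.

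The promoters of the family are shown for 4 members, the most abundant activating pair (Klra4 and Klra8) and the pair known from myeloid cells (Klra17 and Klra2). The windows come from RefSeq on GRCm38.p6, all on the minus strand, and run 5′ to 3′ from 250 bases before to 50 bases after the gene start. They are chr6:129876623-129876922 for Klra17, chr6:131247313-131247612 for Klra2, chr6:130067222-130067521 for Klra4 and chr6:130129849-130130148 for Klra8. Capitals mark 2 runs of letters, GCAATTTCCTC and AGGAGGGGC, the longest runs (of at least 9 letters) found in the first listed window of at least 8 members.
Klra17: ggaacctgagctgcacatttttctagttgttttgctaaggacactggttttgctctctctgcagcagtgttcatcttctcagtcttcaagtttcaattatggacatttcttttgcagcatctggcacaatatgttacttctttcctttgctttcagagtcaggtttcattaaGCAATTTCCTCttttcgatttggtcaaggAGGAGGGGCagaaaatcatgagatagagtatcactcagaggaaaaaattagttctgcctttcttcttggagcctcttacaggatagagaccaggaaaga
Klra2: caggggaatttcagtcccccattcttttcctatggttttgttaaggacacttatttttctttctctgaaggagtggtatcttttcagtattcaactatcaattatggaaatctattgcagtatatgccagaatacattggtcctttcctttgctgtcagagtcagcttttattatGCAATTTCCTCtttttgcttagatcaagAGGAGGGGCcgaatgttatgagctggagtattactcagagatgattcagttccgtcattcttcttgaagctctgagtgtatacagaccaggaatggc
Klra4: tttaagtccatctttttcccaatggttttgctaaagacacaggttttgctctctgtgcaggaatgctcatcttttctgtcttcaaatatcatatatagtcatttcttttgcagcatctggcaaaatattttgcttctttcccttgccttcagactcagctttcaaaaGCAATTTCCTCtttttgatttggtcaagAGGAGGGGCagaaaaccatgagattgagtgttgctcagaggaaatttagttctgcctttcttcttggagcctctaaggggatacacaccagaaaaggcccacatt
Klra8: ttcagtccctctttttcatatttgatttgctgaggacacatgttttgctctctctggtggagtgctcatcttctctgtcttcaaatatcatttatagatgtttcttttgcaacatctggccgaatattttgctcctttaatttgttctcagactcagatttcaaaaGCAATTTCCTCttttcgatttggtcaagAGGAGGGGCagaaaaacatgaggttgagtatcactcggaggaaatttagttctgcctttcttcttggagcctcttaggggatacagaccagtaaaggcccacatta
Searched on both strands, each run was found in windows of 8 of the 10 members, and those of Klra7 and Klra10 lacked both. That count follows from the choice of runs shared by at least 8 members. The 2 runs do not overlap and lie 17 bases apart in 7 members and 18 bases apart in Klra17. Of all 32851 promoter windows in that table, 0.0578% held GCAATTTCCTC and 1.78% held AGGAGGGGC. Since the runs were taken from the members themselves, these shares are no measure of enrichment. A match describes the letters and is no evidence of a bound factor. Klra17 carried both runs, as did members with small differences between the groups, such as Klra5 and Klra9. Runs chosen for being shared by at least 8 members could not set a single member apart, so nothing is read from this.

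Over the 10 listed members, the activating genes Klra4 and Klra8 made up about as much of the summed level as the inhibitory genes together. That balance depends on the list. The inhibitory gene Klra1, at 154 and 41.0 FPKM in treated libraries and 122 and 56.8 FPKM in controls, is not in it and would lower the activating share. Klra4, which encodes the DAP12-coupled receptor Ly49D, was the most abundant member on average, at 479 and 324 FPKM in the DKK2 libraries, against 376 and 237 FPKM in the controls. DKK2 replicate 2 lay between the controls, so the groups overlapped. The mean was 401 ± 110 FPKM in treated libraries and 306 ± 98.9 FPKM in controls (SD, n = 2 each), a log2 difference of 0.40 ± 0.38 (SE of limma's fit on log2(FPKM + 1), DKK2 minus control). Klra8 encodes Ly49H, the activating receptor that recognises a glycoprotein of mouse cytomegalovirus. It was at 187 and 97.5 FPKM in treated libraries, against 95.4 and 79.1 FPKM in controls. Both DKK2 libraries were above both controls, but DKK2 replicate 2 exceeded control replicate 1 by little, and most of the difference lay in DKK2 replicate 1. The log2 difference was 0.63 ± 0.39, with a 95% interval of -0.38 to 1.64. The near copy Klra14, a pseudogene, was at 60.1 and 37.5 FPKM in treated libraries and at 41.7 and 25.6 FPKM in controls.

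For the inhibitory receptor genes Klra7, Klra9, Klra3, Klra5 and Klra6, the library labelled replicate 1 was the higher one in both groups, and the groups overlapped for each gene. Klra7 encodes Ly49G, an inhibitory receptor for MHC class I. It was at 339 and 164 FPKM in the DKK2 libraries and at 365 and 170 FPKM in the controls. The replicate 1 libraries of both groups were high and the replicate 2 libraries low, and the log2 difference between the groups was -0.08 ± 0.54. Klra9, which encodes Ly49I, was at 115 and 51.1 FPKM in treated libraries and 101 and 46.9 FPKM in controls, a log2 difference of 0.16 ± 0.56. Klra3 encodes Ly49C, which like Ly49I binds the class I molecule H2-K of this strain. It was at 131 and 60.8 FPKM in treated libraries, against 81.9 and 64.5 FPKM in controls (log2 difference 0.30 ± 0.44). DKK2 replicate 1 was the highest library for Klra3 and DKK2 replicate 2 the lowest, so the controls lay inside the DKK2 range.

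Klra5, which encodes the inhibitory receptor Ly49E, showed the same order, at 36.1 and 11.5 FPKM in treated libraries and 20.7 and 16.7 FPKM in controls. Its log2 difference was 0.14 ± 0.56, and the controls again lay inside the DKK2 range. Klra6, which encodes Ly49F, was at 18.5 and 4.90 FPKM in treated libraries and 11.9 and 5.03 FPKM in controls, a log2 difference of 0.28 ± 0.70. Klra10, which encodes Ly49J, was at 3.25 and 0.567 FPKM in treated libraries and at 0.551 and 0.605 FPKM in controls. It passed the filter of a mean of 1 FPKM only through DKK2 replicate 1, with about 55 and 9 fragments behind the DKK2 values and 23 and 9 behind the control values. The values of Klra10 in the other 3 libraries were close to each other, and its log2 difference was 0.71 ± 0.59.

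**Figure D2:**
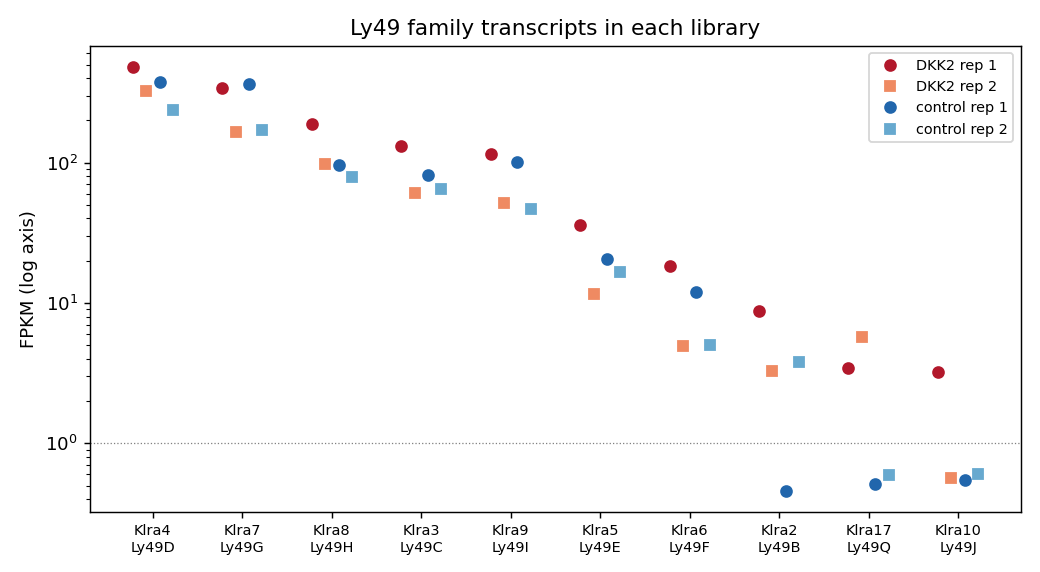
FPKM of the 10 Ly49 genes on a log axis, ordered by mean, with 1 point per library (circles replicate 1, squares replicate 2, red DKK2, blue control) and a dotted line at the 1 FPKM filter. From Klra4 down to Klra6 the replicate 1 libraries sit above the replicate 2 libraries of the same group, and Klra17 is the member with both DKK2 points far above both control points.

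In Klra17, Klra2 and the low Klra10 replicate 1 was not the higher library in both groups. Klra17 encodes Ly49Q, an ITIM-bearing member that is known from plasmacytoid dendritic cells and myeloid cells rather than from NK cells. It was at 3.43 and 5.70 FPKM in the DKK2 libraries, against 0.515 and 0.599 FPKM in the controls. The groups did not overlap, the controls were close to each other, and DKK2 replicate 2 was the higher library, unlike in any other member. The values correspond to about 84 and 138 fragments with DKK2, against 32 and 13 fragments in controls. The mean was 4.57 ± 1.61 FPKM in treated libraries and 0.557 ± 0.0597 FPKM in controls (SD, n = 2 each), a ratio of 8.20. It passed the filter only through the DKK2 libraries. On the log2(FPKM + 1) scale, which understates changes of low genes, the difference was 1.81 ± 0.38. It lay between 1.51 and 2.11 with any 1 library left out and was 2.79 with 0.1 in place of 1 FPKM added. Since the groups did not overlap, leaving 1 library out could not change its sign. This is the value that led to the choice of the family, so it carries no test here. Klra2 encodes Ly49B, a member known from myeloid cells. It was at 8.77 and 3.29 FPKM in treated libraries, against 0.460 and 3.79 FPKM in controls. Control replicate 1 alone was low, and DKK2 replicate 2 was below control replicate 2 (log2 difference 1.29 ± 0.73). Without control replicate 1 the log2 difference of Klra2 was 0.44.

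Transcripts of other cells differed between the libraries too. The 11 monocyte and macrophage markers in the table summed to 1123 and 667 FPKM in treated libraries, against 361 and 568 FPKM in controls, and 10 of them were lowest in control replicate 1. Of these markers 7 were highest in DKK2 replicate 1 and 4 (Csf1r, Cd68, Emr1 and Cd14) in DKK2 replicate 2. The sum rests mostly on Lyz2 and on Ccr2, and Ccr2 alone was at 352 FPKM in control replicate 1. The macrophage gene Emr1 was at 10.8 and 25.7 FPKM in treated libraries and 0.0447 and 17.9 FPKM in controls, and C1qb at 27.8 and 5.93 FPKM in treated libraries and 0.0186 and 2.01 FPKM in controls. The 11 neutrophil markers summed to 3535 and 126 FPKM in treated libraries and 1.18 and 65.6 FPKM in controls, with 5 listed at 0 in control replicate 1. Of the neutrophil markers 10 were highest in DKK2 replicate 1, the library in which Klra2 was highest too. The 12 plasmacytoid dendritic cell markers summed to 398 and 574 FPKM in treated libraries and 600 and 508 FPKM in controls. Irf8, which NK cells also express, makes up most of that sum. Of the 12 markers 8 were highest in DKK2 replicate 2, as Klra17 was, and 7 were lowest in control replicate 1. Siglech, which defines these cells, was at 0.831 and 0.782 FPKM in treated libraries and at 0.00156 and 0.940 FPKM in controls. The 10 T cell markers summed to 283 and 249 FPKM in treated libraries and 91.1 and 192 FPKM in controls, and the 9 B cell markers to 5.99 and 39.5 FPKM in treated libraries and 0.667 and 24.2 FPKM in controls. The 8 conventional dendritic cell markers summed to 407 and 409 FPKM in treated libraries and 42.8 and 191 FPKM in controls, and the 7 erythroid and platelet markers to 9.73 and 22.5 FPKM in treated libraries and 0.356 and 16.2 FPKM in controls. Klra2 was low in control replicate 1 as these sums were, the plasmacytoid list apart. Klra17 was low in both controls and highest in DKK2 replicate 2, the library that also held the highest value of 6 of the 10 T cell and 7 of the 9 B cell markers. The part of other cells in the Klra17 and Klra2 values was not tested.

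**Figure D3:**
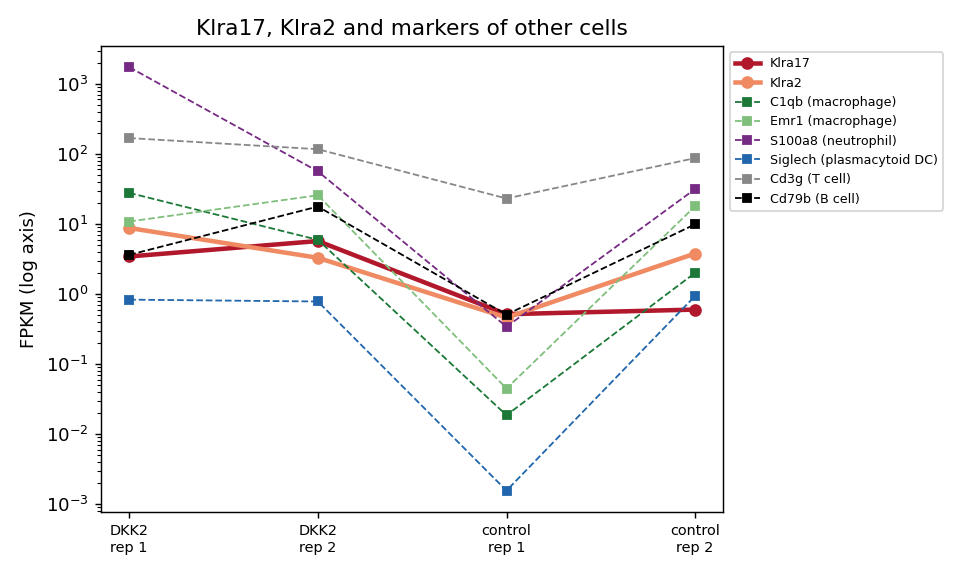
FPKM on a log axis of Klra17, Klra2 and 6 marker genes of other cell types (picked from the lists after their values were seen) in the 4 libraries, with lines that only join the values of 1 gene. Klra17 is highest in DKK2 replicate 2 and low in both controls, and all 6 marker genes are lowest in control replicate 1. Over the full lists, 9 of 10 T cell but only 7 of 12 plasmacytoid dendritic cell markers were lowest there.

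Within the family the order of mean levels was Klra4, Klra7, Klra8, Klra3, Klra9, Klra5, Klra6, Klra2, Klra17 and Klra10, with means of 354 FPKM at the top and 1.24 FPKM at the bottom. Klra4 was above Klra7, Klra7 above Klra8 and Klra8 above Klra3 in 4 of 4 libraries, although the ranges of these neighbours over the libraries overlapped. Klra3 was above Klra9 in 3 of 4 libraries. The gap from Klra9 to Klra5 was the only one between neighbours whose ranges did not overlap. The lowest 3 genes had no fixed order, with Klra2 above Klra17 and Klra17 above Klra10 in 2 of 4 libraries each.

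Summed over the 10 members, Ly49 transcripts came to 1322 and 723 FPKM in treated libraries, against 1053 and 623 FPKM in controls. The spread between replicates was larger than the distance between the groups, whose means were 1022 and 838 FPKM, a ratio of 1.22. The log2 ratio of the sums was 0.29 with all libraries. It was -0.21 without DKK2 replicate 1, 0.66 without DKK2 replicate 2, 0.71 without control replicate 1 and -0.04 without control replicate 2. The geometric mean of 10 NK cell markers ranked the libraries in the same order, at 403 and 348 FPKM in treated libraries and 374 and 327 FPKM in controls. The single markers did not share 1 order. Of the 10 markers, 6 were highest in DKK2 replicate 1 and 2 in DKK2 replicate 2, while Prf1 was lowest in DKK2 replicate 1 (649 FPKM). Divided by the geometric mean, the sum was 3.28 and 2.08 with DKK2 and 2.81 and 1.91 in controls. The 2 activating genes together were at 666 and 421 FPKM in treated libraries, against 472 and 316 FPKM in controls, and the 8 inhibitory genes at 655 and 302 FPKM in treated libraries, against 582 and 308 FPKM in controls. The activating share was 50.4% and 58.2% of the sum in treated libraries and 44.8% and 50.6% in controls. DKK2 replicate 1 fell just below control replicate 2, so the shares overlapped. Klra7 took 25.7% and 22.7% of the sum with DKK2, against 34.6% and 27.2% in controls, so both DKK2 libraries were below both controls. The Klra8 share lay above both controls, at 14.1% and 13.5% with DKK2, against 9.06% and 12.7%. So did that of Klra2 and Klra17 together, at 0.923% and 1.24% with DKK2, against 0.0926% and 0.704%. Shares of 1 sum depend on each other, and the level of Klra7 itself hardly differed between the groups.

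**Figure D4:**
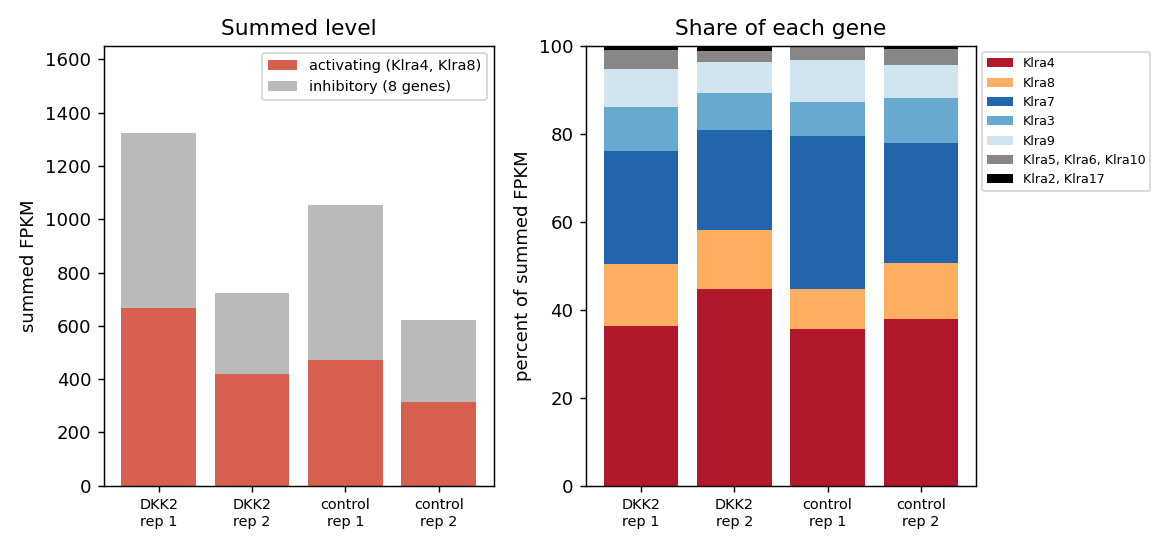
Left, summed FPKM of the activating (Klra4, Klra8) and inhibitory Ly49 genes in each library. Right, percent of that sum taken by each gene. The sums are higher in replicate 1 of both groups, and Klra4, Klra7 and Klra8 take most of the sum in every library.

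Of the 10 members, 9 had a positive and 1 a negative log2 difference, where 43.6% of the 12275 genes tested had a positive one. The median over the members was 0.35, and -0.05 over all genes tested. That median rested on DKK2 replicate 1, which was the highest library for 8 members, and without it the median was -0.13. It was 1.01 without DKK2 replicate 2, 0.69 without control replicate 1 and 0.10 without control replicate 2. Against its same-numbered control, DKK2 replicate 1 was higher in 9 members and DKK2 replicate 2 in 4. Both DKK2 libraries were above both controls in 2 members (Klra17 and Klra8) and below both in 0, where 11.8% and 14.8% of all genes tested were. By limma with Benjamini-Hochberg adjustment 4 genes of the whole table (0.0326%) passed an adjusted p of 0.05, and 0 did when any 1 library was left out. None of the 4 was a member. Because the contrast served to choose the family, nothing is read from these counts.

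**Figure D5:**
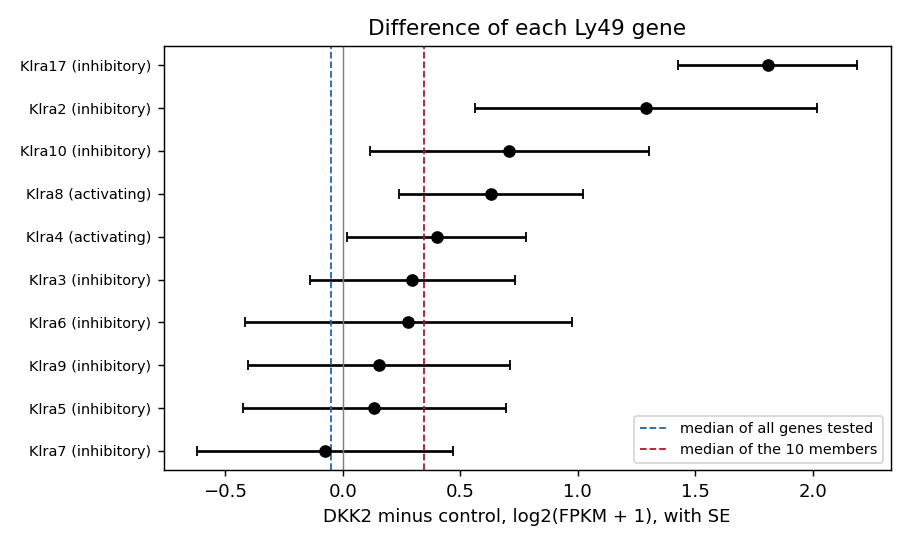
DKK2 minus control on the log2(FPKM + 1) scale for each member, with the SE of limma's fit as bars and dashed lines at the median of the 10 members (0.35) and of all genes tested (-0.05). Klra17 lies at 1.81 and Klra7 at -0.08, and the bars of Klra3, Klra6, Klra9, Klra5 and Klra7 cross 0. The 95% intervals, which are wider, also include 0 for Klra4 (-0.58 to 1.38), Klra8 (-0.38 to 1.64), Klra10 (-0.83 to 2.24) and Klra2 (-0.59 to 3.17).

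The table holds 4 further Klra rows, of which limma called 0, with 0 at an unadjusted p under 0.05. Of all genes tested 0.0326% and 1.84% were, so these counts say nothing about the 4 rows. Klra1, which encodes the inhibitory receptor Ly49A, was at 154 and 41.0 FPKM in treated libraries and 122 and 56.8 FPKM in controls. Klra23 was at 66.5 and 28.1 FPKM in treated libraries and 27.4 and 34.2 FPKM in controls, and the pseudogene Klra11 at 2.16 and 1.05 FPKM in treated libraries and 2.22 and 1.54 FPKM in controls. By the mean absolute difference of centred log2 values over the 4 libraries, the genes most like the summed family were Igsf5 (0.039), Sdhaf1 (0.052), Gm4956 (0.053), Ncr1 (0.053) and Pdrg1 (0.064). Those most like Klra17 were Gm16632 (0.073), Trbv20 (0.132), Igkv17-127 (0.157), Dhrs3 (0.176) and Ctla4 (0.215). These genes were ranked on the Klra17 values themselves. Trbv20 and Igkv17-127 are antigen receptor gene segments of T and B cells, and Ctla4 is a T cell inhibitory receptor. The summed T and B cell markers were at 192 and 24.2 FPKM in control replicate 2, where Klra17 was at 0.599 FPKM. Whether T or B cells bear on the Klra17 values was not tested. Trbv20 was at 1.56 and 3.09 FPKM in treated libraries, against 0.124 and 0.0934 FPKM in controls.

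No gene of the lists drawn up around the Ly49 receptors passed the test. Across 5 lists with 79 genes tested, limma called 0 in either direction, against 0.0326% of all genes tested. At so low a share, 0 calls say nothing about the lists. An unadjusted limma p under 0.05 was reached by 0, against 1.84% of all genes tested. Both DKK2 libraries were above both controls in 6 (11.8% of all genes tested were) and below both in 5 (14.8%). The adaptor of the activating receptors, Tyrobp, was at 1496 and 1939 FPKM in treated libraries, against 1948 and 1198 FPKM in controls. Its controls enclosed both DKK2 libraries, unlike those of Klra4, and the log2 difference was 0.16 ± 0.40. Of 21 activating adaptors and kinases tested, 10 had positive and 11 negative differences. Those with the smallest p included the kinase gene Btk (log2 difference 0.79 ± 0.62) and the phospholipase gene Plcg1 (0.60 ± 0.53).

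On the inhibitory side 10 of 12 signalling genes had negative differences, with a median of -0.30. Of all genes tested, 43.6% had positive differences and the median was -0.05, so negative ones were the commoner kind. The SHP-1 gene Ptpn6 was at 155 and 229 FPKM in treated libraries, against 280 and 139 FPKM in controls (-0.07 ± 0.44). Dgka, a diacylglycerol kinase that dampens receptor signals, was at 16.1 and 18.1 FPKM in treated libraries and 11.5 and 11.2 FPKM in controls (0.55 ± 0.24, limma adjusted p = 0.9996). The adaptor gene Dok2 (-0.57 ± 0.43) and the SHP-2 gene Ptpn11 (-0.38 ± 0.29) came next by p. Control replicate 1 was the highest library for both. Dok2 was at 178 and 204 FPKM in treated libraries, against 412 and 196 FPKM in controls. Among the listed class I genes and assembly factors 7 of 8 had positive differences, the largest in H2-K1, at 1204 and 1568 FPKM in treated libraries and 1102 in both controls (0.32 ± 0.32). H2-D1 (0.26 ± 0.33) and H2-T23 (0.31 ± 0.33) had slightly smaller differences.

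Other lectin receptors of the same gene complex had positive differences in 12 of 18 cases, with a median of 0.13. Cd69, an early activation marker, was at 32.0 and 32.8 FPKM in treated libraries, against 51.8 and 44.2 FPKM in controls (-0.55 ± 0.24, limma adjusted p = 0.9996). Klrg1, an inhibitory receptor of mature NK cells, was at 176 and 133 FPKM in treated libraries and 47.1 and 117 FPKM in controls (1.03 ± 0.49). The myeloid lectin Clec12a was at 28.3 and 12.4 FPKM in treated libraries and 0.0804 and 10.2 FPKM in controls (2.51 ± 1.16), low in control replicate 1 as Klra2 was. Of 20 genes listed as regulators of Ly49 expression 13 had positive differences. Those with the smallest p were Zbtb32 (-0.77 ± 0.38), a transcriptional repressor of lymphocytes, the Runx partner gene Cbfb (-0.58 ± 0.30) and Runx1 (-0.34 ± 0.25). Cbfb was at 107 and 72.6 FPKM in treated libraries, against 133 and 131 FPKM in controls.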

How the data were processed

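RNA of 4 NK cell libraries (2 DKK2, 2 control) was analysed from FPKM values that the authors deposited, 1 column per library, per the file headers. Build mm9 and the tools Cuffdiff 2.1.0, TopHat2 2.1.0, edgeR and CASAVA appear in the submitters' processing notes, without roles. The annotation, the use of strand and the treatment of multiply mapped fragments are not stated there. Of 37305 rows, 0 value columns were left aside.

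Values were taken as log2(FPKM + 1). Rows with a mean of at least 1 FPKM (12275) entered a linear model with a trended prior and no covariate (limma 3.58.1, R 4.3.3), two-sided, with Benjamini-Hochberg adjustment over all of them. The script was tested on simulated data with less spread, higher levels and larger changes than most members showed. That run checks the code and says nothing about power in these data. With 2 libraries against 2 an exact permutation test cannot go below p = 0.333, so none was run. The highest row was used where a symbol repeats. The worth of 1 fragment is the median of the first peak of FPKM times length among low genes with 1 transcript. Fragment numbers are approximate and cover counting only.

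Members, lists and tests were chosen with earlier results of these data known. Named genes were the members, the 3 of each list with the smallest p and the 5 nearest patterns to Klra17 and to the sum. One gene of these is not reported here. Others were named after their values were seen. RefSeq promoters matched 10 of 10 members and are on GRCm38.p6, not the files' build.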

Additional observations from a re-analysis of the deposited data

How the results depend on the processing

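The count of genes called over the whole table was 4, and 4 to 5 with another offset, a filter at 5 FPKM, quantile normalization or median scaling. It was 0 with no filter on low values, where 22869 rows were tested, 8 with the replicate number as a block (2 higher and 6 lower), and 0 when any 1 library was left out, with 150 to 855 genes at an unadjusted limma p under 0.05. Replicate numbers were not treated as pairs, since deviations from the group means of same-numbered libraries had a correlation of 0.01 over the genes tested. That value does not describe the family, where both replicate 1 libraries were above both replicate 2 libraries in 6 of the 10 members. Among the genes of the 5 lists 0 were called in every alternative run. With no filter, or with 1 library left out, 0 were called in the whole table, so those runs could not have differed. The members' median difference of 0.35 ranged from -0.13 to 1.01 when 1 library was left out and from 0.28 to 0.42 under the other settings. The 0.28 came with the filter at 5 FPKM, which removes Klra2, Klra10 and Klra17, so it covers fewer members. The log2 ratio of the Ly49 sums was 0.29, between -0.21 and 0.71 with 1 library left out. Over all 14 Klra rows it was 0.29, and divided by the NK marker mean 0.18; these 2 were added after seeing the data. The activating share was 6.61 percentage points higher in DKK2 libraries on average, from 2.70 to 10.5 with 1 library left out. With 1 library left out the lone sample is assumed to vary like the other group. The difference turned negative in at least 1 such fit for Klra3, Klra5, Klra6, Klra9 and Klra10, turned positive in 2 for Klra7, and stayed positive for Klra2, Klra4, Klra8 and Klra17. For Klra8 and Klra17, whose groups did not overlap, the sign could not change in such a fit. With 2 libraries a group of unequal depth, differences of the size seen for most members cannot be told from the spread between replicates.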
